A study of Mus musculus with 34 samples.

Results

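The lysosomal cathepsins are proteases that cut proteins inside the acidic lysosome, the compartment in which cells break down material they have taken up. They are made as inactive precursors, carried to the lysosome and activated there, and they fall into aspartic, serine and cysteine types by the residue that does the cutting. In the brain they are made by neurons and glia, and microglia, the resident macrophages of the tissue, are rich in several of them, Ctss above all. The 10 genes described here, Ctsa, Ctsb, Ctsc, Ctsd, Ctsf, Ctsh, Ctsk, Ctsl, Ctss and Ctsz, were taken by symbol from the 55385 genes of the deposited tables. Each of the 10 passed the filter on low counts, which 17518 genes passed.

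The RNA came from the hippocampus of 34 mice aged 6 months, in 8 groups made of 4 genotypes and 2 treatments. The genotypes were 5xFAD, 5xFAD-Dp16, Dp16 and wild type (WT, C57BL/6J). 5xFAD mice carry human transgenes with familial Alzheimer's disease mutations, driven by a neuronal promoter, and form amyloid plaques. Dp16 mice carry a duplication of the mouse chromosome segment that corresponds to much of the human chromosome trisomic in Down syndrome, and 5xFAD-Dp16 mice carry both. Tofacitinib, an inhibitor of Janus kinases, was given by gavage at 15 mg/kg each day for a month, and sham animals received 0.5% methylcellulose alone. The tofacitinib groups held 5 5xFAD, 4 5xFAD-Dp16, 5 Dp16 and 5 WT animals, and the sham groups held 4 5xFAD, 3 5xFAD-Dp16, 3 Dp16 and 5 WT animals. Females and males were present in every group, and sex was a term in the fit.

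Libraries held 14.9 to 21.1 M counts (median 17.8 M), of which the 10 cathepsins took 0.113 to 0.21%. No pair of libraries within a group was a duplicate, with a chi-square per degree of freedom of 6.465 or more in all 58 pairs. A total of 3 libraries went against the tissue label. The mean log2 CPM (counts per M, TMM-scaled) of 10 hippocampal neuron markers was 2.52 in WT tofacitinib animal 3, 3.22 in 5xFAD tofacitinib animal 2 and 3.13 in 5xFAD-Dp16 sham animal 4, against 5.29 to 6.08 in the other 31. The mean of 7 thalamus markers was 7.54 in 5xFAD tofacitinib animal 2 and 6.88 in 5xFAD-Dp16 sham animal 4, but 4.35 in WT tofacitinib animal 3. It was also high, at 5.79, in 5xFAD-Dp16 tofacitinib animal 1, and at most 4.92 in the rest. The libraries high in thalamus markers all carried the transgenes, and the part of this in the transgene estimates was not tested. Results are given with all 34 libraries and, where a call changed, without the 3 libraries low in hippocampal markers. 5xFAD-Dp16 tofacitinib animal 1 is kept in both.

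Cathepsin RNA rose with the 5xFAD transgenes. In the mean over both segment states and both treatments, 7 of the 10 genes were higher with the transgenes than without them, none was lower, and 1.59% of all genes tested passed the same test (edgeR quasi-likelihood F-test, Benjamini-Hochberg adjustment over all genes, threshold 0.05). The 7 were the aspartic protease gene Ctsd, the serine carboxypeptidase gene Ctsa and the cysteine protease genes Ctsz, Ctss, Ctsl, Ctsh and Ctsb. Ctsz, Ctss and Ctsd were higher by 1.85-fold, 1.83-fold and 1.8-fold, and the other 4 by 1.16-fold to 1.36-fold. Ctsc, Ctsf and Ctsk did not pass. The median log2 fold change of the 10 genes was 0.37, beside 0.0018 over all genes tested. In bulk tissue, more cells of a type and more RNA per cell cannot be told apart. The labels number the animals and say nothing of litters or cages, so p-values measure the spread between these animals.

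**Figure D1:**
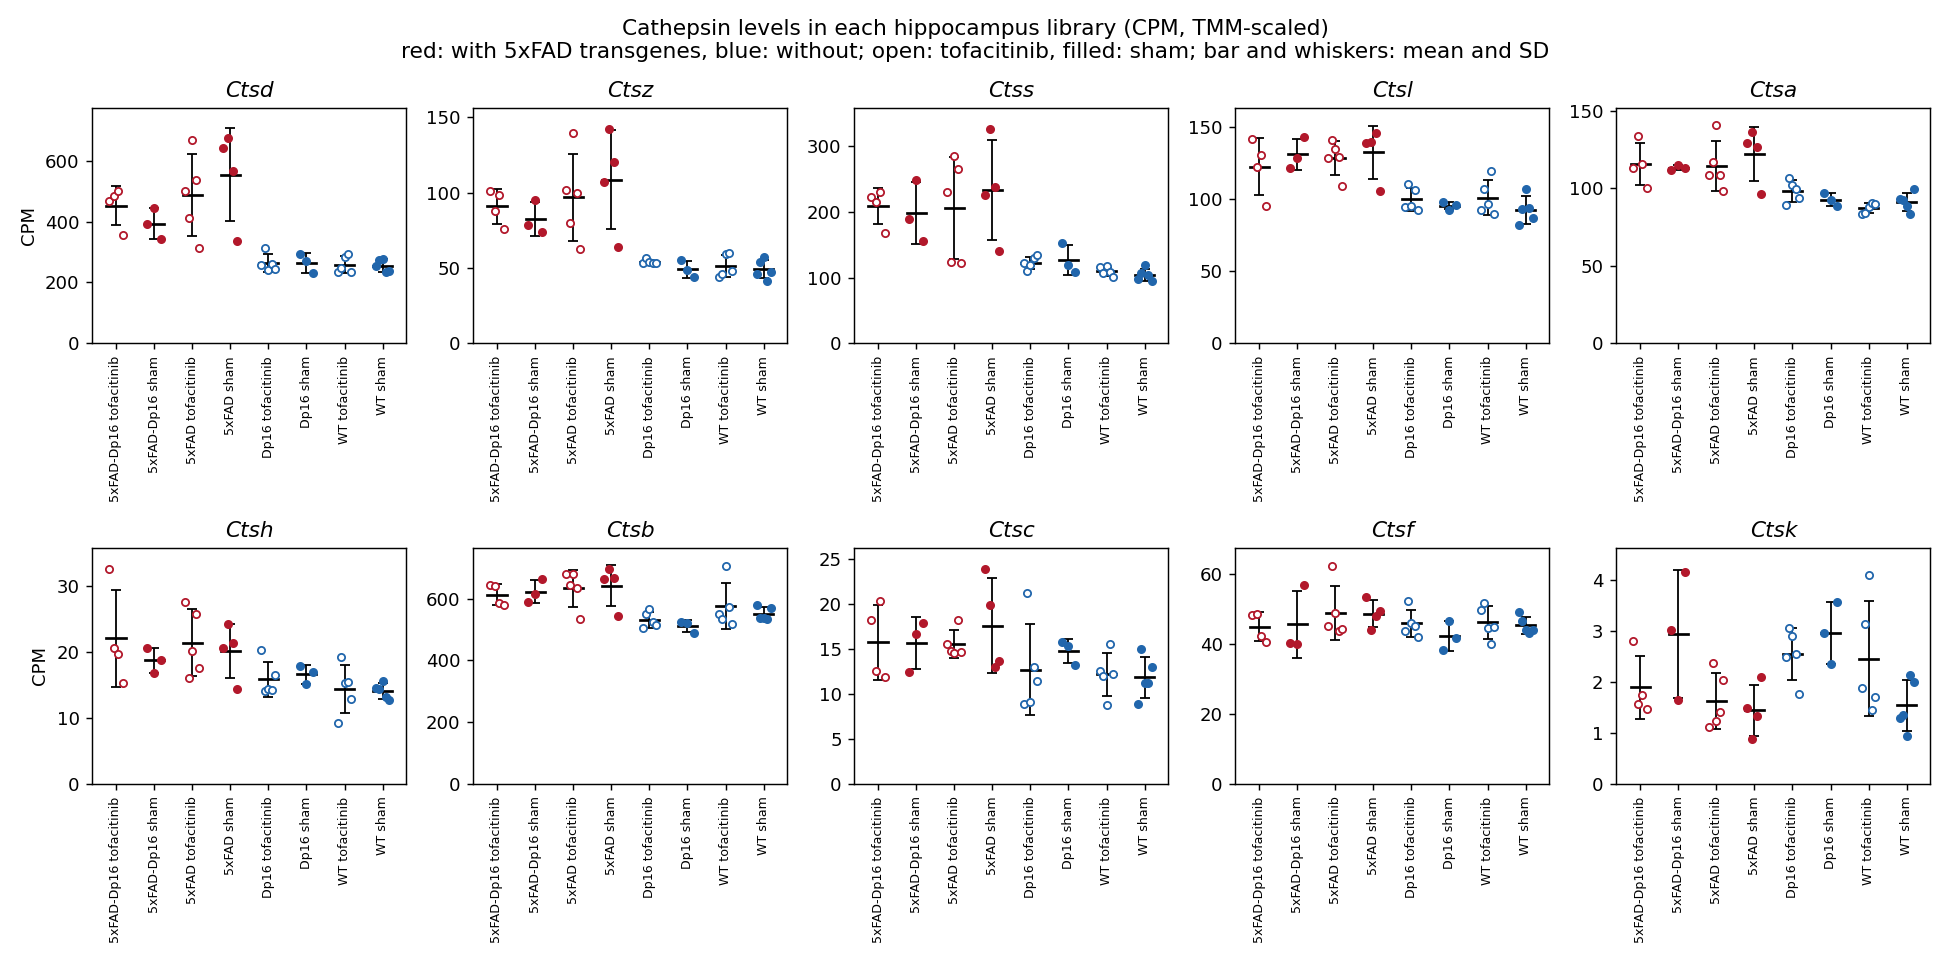
Level of each cathepsin gene in every library (CPM, linear axis from 0; 1 panel a gene, 8 groups along the x axis). Red points are animals with the 5xFAD transgenes and blue points animals without, open points tofacitinib and filled points sham, and bars and whiskers are the mean and SD. For Ctsz all 16 red points, from 62.8 CPM, lie over all 18 blue points, while red and blue points overlap for Ctsk, Ctsc and Ctsf.

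Levels of different genes can be set side by side per length. On the RPKM scale (reads per kilobase of gene and M counts), Ctsd led with a mean of 224 RPKM with the transgenes and 122 RPKM without. Ctsb averaged 133 RPKM with the transgenes and 115 RPKM without, Ctss 156 RPKM with them and 84.3 RPKM without, and Ctsz 66.2 RPKM with them and 35.5 RPKM without. Ctsa, Ctsf, Ctsl and Ctsh lay between 12.9 and 31.7 RPKM with the transgenes and between 9.30 and 25.1 RPKM without. The least abundant were Ctsc, at 3.04 RPKM with the transgenes and 2.38 RPKM without, and Ctsk, at 1.28 RPKM with them and 1.53 RPKM without. As a share of the summed RPKM of the 10 genes, Ctsd made up 33.3% with the transgenes and 28.1% without, and Ctss 23.1% with them and 19.4% without. Ctsb, the second most abundant gene without the transgenes, made up 19.8% with them and 26.5% without. The summed RPKM was 724 ± 154 in 5xFAD sham animals (SD, n = 4) and 618 ± 27.5 in 5xFAD-Dp16 sham animals (n = 3), against 434 ± 37.6 in Dp16 sham animals (n = 3) and 421 ± 23.1 in WT sham animals (n = 5).

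Ctsd encodes cathepsin D, the main aspartic protease of the lysosome, whose loss causes a neuronal ceroid lipofuscinosis. The gene lies at chr7:142375911-142388038 on the minus strand (GRCm38, gene positions here and below from GENCODE). In sham libraries it had 641, 674, 566 and 335 CPM in the 5xFAD animals and 394, 443 and 341 CPM in the 5xFAD-Dp16 animals, against 293, 270 and 230 CPM in the Dp16 animals and 253, 275, 278, 233 and 237 CPM in the WT animals. Each sham animal with the transgenes was above each sham animal without them, and 5xFAD animal 4 and 5xFAD-Dp16 animal 4 were the lowest of those with them. Under tofacitinib it had 500, 412, 669, 538 and 313 CPM in the 5xFAD animals and 469, 483, 502 and 357 CPM in the 5xFAD-Dp16 animals, against 256, 313, 240, 261 and 246 CPM in the Dp16 animals and 236, 246, 282, 293 and 233 CPM in the WT animals. Values with and without the transgenes met at one point, 5xFAD animal 6 and Dp16 animal 2, and in all 15 of 16 animals with the transgenes were above all 18 without. The log2 fold change for the transgenes was 0.85 (SE 0.0874, adjusted p 2.13e-07).

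Ctsa encodes cathepsin A, the serine carboxypeptidase that also protects beta-galactosidase and neuraminidase in a complex. It lies at chr2:164832873-164841032 on the plus strand. Its level ran from 96.3 CPM through a median of 114 to 141 CPM in the 16 animals with the transgenes, against 83.2 CPM through 91.4 to 107 CPM in the 18 without. A total of 13 animals with the transgenes exceeded every animal without them. The log2 fold change was 0.34 (SE 0.049, adjusted p 3.69e-05). Ctsa overlaps Pltp, which had a mean of 1678 counts a library beside 1878 for Ctsa, and whether they share reads was not tested.

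The promoters of the cathepsin genes were searched for the E-box CACGTG and its palindromic extension TCACGTGA, the core of the CLEAR element that TFEB and its relatives bind at lysosomal genes. RefSeq starts (GRCm38.p6, windows of 300 bases, from 250 before the start to 50 after, both strands) were listed for 8 of the 10 genes, in 9 windows, and not for Ctsb and Ctsh. CACGTG was present in the windows of 4 genes, Ctsa, Ctsd, Ctsf and Ctsl, and in 7.15% of all 32851 windows. TCACGTGA, which contains CACGTG, was present for Ctsa and Ctsd and in 0.974% of all windows. Ctsa carried it on either side of 1 of its 2 starts. Ctsd also held a CACGTG outside the palindrome, 245 bases before its start, which is not shown. The motif occurs both in genes that rose with the transgenes (Ctsd, Ctsa, Ctsl) and in Ctsf, which did not pass. Stretches of 30 bases around the other matches are shown on the strand of each gene, 5′ to 3′, with the motif in capitals. They lie at chr7:142387908-142387937 (Ctsd, minus strand), chr2:164833757-164833786 (Ctsa, plus), chr13:64370739-64370768 (Ctsl, minus) and chr19:4855074-4855103 (Ctsf, plus). In GENCODE the Ctsd and Ctsa stretches lie whole within annotated exons of those genes and the Ctsl stretch lies in one for 15 of its 30 bases, while the Ctsf stretch lies in none. Of the 250 bases before these RefSeq starts, 211 for Ctsd, 164 for Ctsa, 48 for Ctsl and 35 for Ctsf are annotated as exon of the same gene. The Ctsd, Ctsa and Ctsl stretches lie inside the GENCODE spans of these genes, downstream of the GENCODE starts, and the Ctsf stretch lies before its GENCODE start.
Ctsd: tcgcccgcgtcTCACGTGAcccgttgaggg
Ctsa: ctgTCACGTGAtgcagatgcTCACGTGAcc
Ctsl: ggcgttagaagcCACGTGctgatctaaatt
Ctsf: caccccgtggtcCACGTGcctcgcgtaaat

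Among the cysteine proteases, Ctsz and Ctss had the largest estimates. Ctsz encodes cathepsin Z (also called X), a carboxypeptidase rich in microglia and macrophages, at chr2:174427493-174439039 on the minus strand. In sham libraries it had 107, 143, 121 and 64.2 CPM in the 5xFAD animals and 78.7, 95.2 and 73.7 CPM in the 5xFAD-Dp16 animals, against 55.2, 48.5 and 44.0 CPM in the Dp16 animals and 46.2, 53.8, 57.2, 41.6 and 47.6 CPM in the WT animals. Under tofacitinib it had 102, 80.2, 140, 99.8 and 62.8 CPM in the 5xFAD animals and 101, 88, 98.3 and 76 CPM in the 5xFAD-Dp16 animals, against 53.0 to 56.4 CPM in the 5 Dp16 animals and 44.3, 46.2, 59, 59.7 and 48 CPM in the WT animals. All 16 animals with the transgenes were above all 18 without, and Ctsz was the only one of the 10 genes for which the groups did not overlap. How many of all genes tested separate the animals to this degree was not counted, for Ctsz or for the other cathepsins. The log2 fold change was 0.89 (SE 0.0936, adjusted p 4.41e-07). Ctsz overlaps Nelfcd, on the opposite strand, which averaged 603 counts a library beside 1304 for Ctsz.

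Ctss encodes cathepsin S, which trims the invariant chain of MHC class II molecules in antigen-presenting cells and stays active at neutral pH. It lies at chr3:95526786-95556403 on the plus strand. In sham libraries it had 226, 327, 238 and 141 CPM in the 5xFAD animals and 190, 249 and 156 CPM in the 5xFAD-Dp16 animals, against 152, 119 and 109 CPM in the Dp16 animals and 97.9, 107, 119, 103 and 95.3 CPM in the WT animals. Under tofacitinib it had 230, 124, 286, 266 and 122 CPM in the 5xFAD animals and 222, 215, 230 and 168 CPM in the 5xFAD-Dp16 animals, against 122, 110, 119, 129 and 134 CPM in the Dp16 animals and 116, 107, 118, 108 and 100.4 CPM in the WT animals. A total of 13 of the 16 animals with the transgenes were above all 18 without. The other 3 were 5xFAD sham animal 4 and 5xFAD tofacitinib animals 2 and 6. The log2 fold change was 0.87 (SE 0.11, adjusted p 8.43e-06).

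Ctsk, the neighbour of Ctss 17423 bases away on the same strand, did not pass. It encodes cathepsin K, the collagen-degrading protease of osteoclasts and fibroblasts, at chr3:95499256-95509362. Its level ran from 0.88 CPM through a median of 1.61 to 4.17 CPM with the transgenes, against 0.935 CPM through 2.25 to 4.11 CPM without. The ranges overlapped nearly whole, and the log2 fold change was -0.28 (SE 0.175, adjusted p 0.602). The 250 bases before the start of both neighbours and of Ctsz are shown 5′ to 3′ on the strand of the gene, so that the upstream sequence of the 2 cysteine protease genes with the largest estimates can be read beside that of the neighbour that did not pass. They are RefSeq windows on GRCm38.p6, at chr3:95526536-95526785 (Ctss, plus strand), chr3:95498960-95499209 (Ctsk, plus) and chr2:174439040-174439289 (Ctsz, minus). None of the 3 holds CACGTG. Ctsk holds 0 CpG in these 250 bases, Ctss 4 and Ctsz 7, beside a median of 6 over all promoters.
Ctss: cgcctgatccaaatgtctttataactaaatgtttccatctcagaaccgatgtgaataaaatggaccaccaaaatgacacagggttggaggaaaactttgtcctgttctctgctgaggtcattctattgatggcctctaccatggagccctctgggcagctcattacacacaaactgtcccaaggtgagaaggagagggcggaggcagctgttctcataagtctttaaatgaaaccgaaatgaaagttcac
Ctsk: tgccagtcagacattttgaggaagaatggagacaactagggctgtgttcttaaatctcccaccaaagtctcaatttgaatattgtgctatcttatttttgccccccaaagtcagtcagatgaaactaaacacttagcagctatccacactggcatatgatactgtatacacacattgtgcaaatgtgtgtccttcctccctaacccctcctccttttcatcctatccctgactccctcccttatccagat
Ctsz: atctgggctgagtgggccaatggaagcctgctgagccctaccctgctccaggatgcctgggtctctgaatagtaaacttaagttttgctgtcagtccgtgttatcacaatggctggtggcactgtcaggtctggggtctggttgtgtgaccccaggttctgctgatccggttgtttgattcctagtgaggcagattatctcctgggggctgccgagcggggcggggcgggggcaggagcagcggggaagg

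The motif GAGGAAGT (ACTTCCTC on the other strand), a core bound by the macrophage factor PU.1 and other ETS factors, was present in 3.2% of the 32851 windows of 300 bases. Among the cathepsins it was found for Ctss, across the start itself (chr3:95526773-95526802, plus strand), and for Ctsc (chr7:88277923-88277952, plus). These stretches of 30 bases are shown with the motif in capitals, since Ctss rose with the transgenes and Ctsc did not pass. A match of letters describes the sequence and not binding.
Ctss: aatgaaagttcACTTCCTCattgtggatgc
Ctsc: gtcactaactaACTTCCTCaggccacctcg

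Of the other cysteine proteases, Ctsl rose by 1.32-fold, Ctsh by 1.36-fold and Ctsb by 1.16-fold. Ctsl encodes cathepsin L, a broad endopeptidase, at chr13:64359337-64370890 on the minus strand. It ran from 95.7 CPM through a median of 130.1 to 146 CPM with the transgenes, against 82.2 CPM through 94.8 to 120 CPM without, and 13 of 16 animals were above all those without (log2 fold change 0.41, SE 0.0566, adjusted p 2.1e-05). Ctsh encodes cathepsin H, an aminopeptidase, at chr9:90054152-90076089 on the plus strand. It ran from 14.4 CPM through a median of 20.4 to 32.6 CPM with the transgenes, against 9.23 CPM through 14.8 to 20.3 CPM without, and 8 of 16 were above all those without (0.44, SE 0.0996, adjusted p 0.011). Ctsb encodes cathepsin B, an endopeptidase and carboxypeptidase found in most cells, at chr14:63122462-63145923 on the plus strand. It ran from 533 CPM through a median of 643 to 697 CPM with the transgenes, against 489 CPM through 536 to 706 CPM without (0.21, SE 0.0457, adjusted p 0.00624). The ranges overlapped, and no animal with the transgenes exceeded WT tofacitinib animal 3, at 706 CPM. Ctsb overlaps Fdft1, at a mean of 2004 counts beside 10580 for Ctsb.

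Ctsc and Ctsf did not pass. Ctsc encodes cathepsin C, the dipeptidyl peptidase that activates granule serine proteases. The gene lies at chr7:88278085-88310888 on the plus strand. It ran from 11.9 CPM through a median of 15.2 to 23.9 CPM with the transgenes, against 8.71 CPM through 12.3 to 21.2 CPM without (0.33, SE 0.115, adjusted p 0.203). The highest value without the transgenes was that of Dp16 tofacitinib animal 2, and without that library the estimate was 0.39 and passed (adjusted p 0.0407). Ctsf encodes cathepsin F, at chr19:4855130-4860918 on the plus strand. It ran from 40.0 CPM through 46.4 to 62.2 CPM with the transgenes, against 38.1 CPM through 44.6 to 52.0 CPM without (0.08, SE 0.053, adjusted p 0.648). Its highest values, 62.2 and 56.6 CPM, were those of 5xFAD tofacitinib animal 2 and 5xFAD-Dp16 sham animal 4, among the 3 libraries low in hippocampal markers. Without those 3 libraries its log2 fold change was -0.01 (adjusted p 0.993).

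Without the 3 libraries the same 7 genes passed, where 1.58% of all genes did. Their log2 fold changes were 0.89 for Ctsd, 0.93 for Ctsz, 0.94 for Ctss, 0.37 for Ctsl, 0.33 for Ctsa, 0.46 for Ctsh and 0.22 for Ctsb. The 7 also passed in each of the 34 fits that left out 1 library, where 223 to 336 of all genes passed. When the 8 group means of each gene were put in order, 70 pairs of groups were neighbours, and in 7 of them the gap exceeded the larger of the 2 SDs. In 6 of these 7 the pair was a group with the transgenes over a group without. It was 5xFAD-Dp16 sham over Dp16 sham for Ctsd, Ctss and Ctsh, 5xFAD-Dp16 sham over Dp16 tofacitinib for Ctsz and Ctsa, and 5xFAD-Dp16 tofacitinib over WT tofacitinib for Ctsl. The other was Dp16 tofacitinib over WT tofacitinib for Ctss, at 123 and 110 CPM. These gaps were read from the same libraries as the calls, so they describe the order of the groups and are no further test. Such gaps were not counted over all genes. The highest group mean was that of 5xFAD sham animals for 7 genes, Ctsa, Ctsb, Ctsc, Ctsd, Ctsl, Ctss and Ctsz.

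The transgene effect was then read in each background. In sham animals 5 cathepsins were higher in 5xFAD than in WT mice, where 0.445% of all genes passed. Ctsd was higher by 1.13 on the log2 scale (SE 0.166, adjusted p 0.000512), Ctsz by 1.14 (SE 0.178, adjusted p 0.0011), Ctss by 1.16 (SE 0.211, adjusted p 0.00495), Ctsl by 0.52 (SE 0.108, adjusted p 0.0128) and Ctsa by 0.42 (SE 0.0936, adjusted p 0.0233). Ctsd and Ctsz passed in all 9 fits that left out 1 animal of either group, Ctss in all but the fit without 5xFAD animal 2 (adjusted p 0.0811), and Ctsa and Ctsl in 2 and 3 of the 9. The count was 3 without WT animal 1 or 4 or 5xFAD animal 1 or 3, and 2 without 5xFAD animal 2. Under tofacitinib 4 cathepsins were higher in 5xFAD than in WT mice, where 0.32% of all genes passed. Ctsd was higher by 0.91 (SE 0.158, adjusted p 0.00354), Ctsz by 0.91 (SE 0.169, adjusted p 0.0091), Ctss by 0.91 (SE 0.2, adjusted p 0.0395) and Ctsa by 0.39 (SE 0.0886, adjusted p 0.0419). Without the 3 libraries low in hippocampal markers Ctsa was at 0.40 and did not pass (adjusted p 0.0616), which left 3. Ctsd passed in all 10 fits that left out 1 animal, Ctsz in 8, and Ctss and Ctsa in 2 each. The count was 2 without WT animal 1, 3, 4 or 5 or 5xFAD animal 1 or 5, and 1 without WT animal 2 or 5xFAD animal 4.

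On the Dp16 background the estimates of the leading genes were also above 0, and none passed. In sham animals 5xFAD-Dp16 minus Dp16 was 0.74 for Ctsz, 0.64 for Ctss, 0.57 for Ctsd and 0.46 for Ctsl, each with an adjusted p of 0.66. In that comparison, with 3 animals in each group, 0% of all genes passed (1275 of 17518 were at an unadjusted p under 0.05), and DESeq2 called no cathepsin. At an unadjusted p under 0.05 stood 6 of the 10, Ctsa, Ctsb, Ctsd, Ctsl, Ctss and Ctsz. Under tofacitinib it was 0.79 for Ctsd (adjusted p 0.0878), 0.77 for Ctss (adjusted p 0.437) and 0.75 for Ctsz (adjusted p 0.179), where 0.0285% of all genes passed. At an unadjusted p under 0.05 stood the same 6 and Ctsh, where 454 of 17518 genes did, and DESeq2 called Ctsd and Ctsz (adjusted p 0.00665 and 0.0286).

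Against WT mice, which lack both the transgenes and the segment, 5xFAD-Dp16 sham animals had 2 cathepsins higher, where 0.959% of all genes passed. These were Ctss by 0.92 (SE 0.228, adjusted p 0.0425) and Ctsl by 0.50 (SE 0.117, adjusted p 0.0284). Ctsz was at 0.74 (SE 0.193, adjusted p 0.0544) and did not pass, while DESeq2 called it along with the other two (adjusted p 0.0167). Ctsz also passed without the sex term (adjusted p 0.042) and with replicate number as a block (adjusted p 0.0249). Neither Ctss nor Ctsl passed without the 3 libraries low in hippocampal markers, which takes 1 of the 3 animals from this 5xFAD-Dp16 group. Ctss was then at 1.05 (adjusted p 0.0523), above its estimate with all libraries, and Ctsl at 0.41 (adjusted p 0.29), below it. The count was 0 or 1 without any 1 of the 8 animals compared, and Ctss passed in none of those fits. Under tofacitinib 5xFAD-Dp16 animals had 4 cathepsins higher than WT animals, Ctsd by 0.80, Ctsz by 0.82, Ctss by 0.93 and Ctsa by 0.40 (adjusted p 0.0117, 0.0183, 0.029 and 0.0354), where 0.537% of all genes passed. With the block Ctsa did not pass (adjusted p 0.0584). The count was 0 without WT animal 1 or 5xFAD-Dp16 animal 3, 1 without WT animal 2 or 5 or 5xFAD-Dp16 animal 2, and 2 without WT animal 3 or 5xFAD-Dp16 animal 1. These comparisons share their WT animals with those of 5xFAD mice.

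**Figure D2:**
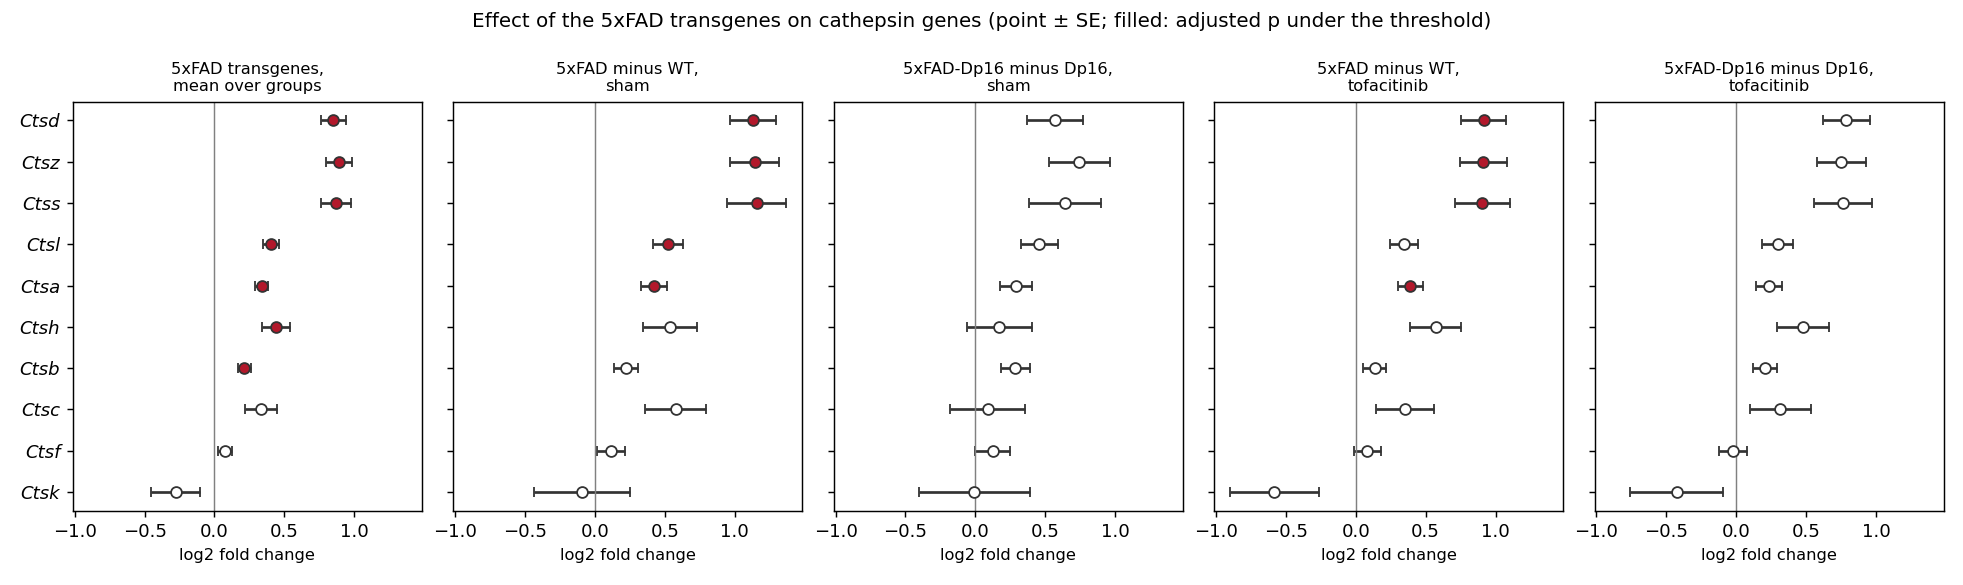
Log2 fold change of the 10 cathepsin genes for the 5xFAD transgenes (x axis), averaged over groups (left panel) and within each background and treatment (other panels). Points are estimates, bars are 1 SE, and filled points passed the threshold. Ctsd, Ctsz and Ctss are farthest to the right in the averaged panel, at 0.85 to 0.89, and Ctsk is left of 0 in every panel.

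Whether the transgene effect differed between animals with and without the segment was tested as an interaction. The difference was -0.34 for Ctsd (95% interval -0.697 to 0.013), -0.33 for Ctss (-0.779 to 0.122) and -0.28 for Ctsz (-0.661 to 0.101), with an adjusted p of 0.942 for each of the 3. Of the 10 estimates 8 were below 0, and none passed or reached an unadjusted p under 0.05. In that interaction 0% of all genes passed (851 at an unadjusted p under 0.05), and DESeq2 also called no cathepsin. The difference between tofacitinib and sham animals in the transgene effect ran from -0.45 for Ctsk to 0.17 for Ctsh. None of the 10 passed or reached an unadjusted p under 0.05, 0% of all genes passed (324 at an unadjusted p under 0.05), and DESeq2 called no cathepsin.

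The Dp16 segment holds none of the 10 genes, and no cathepsin passed for it. In the mean over transgene state and treatment, 0 of 10 passed where 1.38% of all genes did, and DESeq2 called none. Ctsk alone of the 10 was at an unadjusted p under 0.05, where 2241 of 17518 genes were. Apart from Ctsk, the estimates lay between -0.15 (Ctsd, 95% interval -0.336 to 0.0341) and 0.06 (Ctss, -0.177 to 0.292). Without 5xFAD-Dp16 sham animal 4 the count was 1, Ctsf at -0.18 (adjusted p 0.0311), which was at -0.10 with it. By pair of groups, 0 of 10 passed for 5xFAD-Dp16 against 5xFAD in sham animals (0.268% of all genes), for Dp16 against WT in sham animals (0.308%), for 5xFAD-Dp16 against 5xFAD under tofacitinib (0.217%) and for Dp16 against WT under tofacitinib (0.268%). At an unadjusted p under 0.05 stood Ctsd and Ctsk in the first of these, Ctsk in the second and none in the others. Of all 17518 genes, 2006, 1277, 866 and 852 were at an unadjusted p under 0.05, in the same order of comparisons. DESeq2 called no cathepsin in them. The most negative of these estimates was that of Ctsd in 5xFAD-Dp16 against 5xFAD sham animals, at -0.53 (SE 0.195, adjusted p 0.295), and the values overlapped, with 394, 443 and 341 CPM in 5xFAD-Dp16 animals against 641, 674, 566 and 335 CPM in 5xFAD animals.

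Ctsk had the largest estimate for the segment. It had 3.02, 1.65 and 4.17 CPM in 5xFAD-Dp16 sham animals, against 1.5, 0.88, 1.33 and 2.09 CPM in 5xFAD sham animals. It had 2.96, 2.36 and 3.58 CPM in Dp16 sham animals, against 1.3, 1.35, 0.935, 2.14 and 2 CPM in WT sham animals. In sham animals each Dp16 value was above each WT value, the nearest at 2.36 and 2.14 CPM, while the 5xFAD-Dp16 and 5xFAD values overlapped. Dp16 minus WT in sham animals was 0.95 (SE 0.36, adjusted p 0.476) and did not pass. How many of all genes part these 2 groups in this way was not counted. Under tofacitinib Ctsk averaged 1.9 ± 0.619 CPM in 5xFAD-Dp16 and 1.63 ± 0.546 CPM in 5xFAD animals (SD, n = 4 and 5). It averaged 2.56 ± 0.505 CPM in Dp16 and 2.46 ± 1.13 CPM in WT animals (n = 5 each). The estimate over all groups was 0.57 (SE 0.178, 95% interval 0.202 to 0.929, adjusted p 0.118). Markers of fibroblasts, a cell type known for Ctsk, had a median log2 fold change of 0.47 for the segment with 0 of 8 passing, and their part in the Ctsk values was not tested.

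Tofacitinib changed no cathepsin past the threshold. In the mean over genotypes 0 of 10 passed or reached an unadjusted p under 0.05, and 0% of all genes passed (1354 at an unadjusted p under 0.05). The estimates ran from -0.08 for Ctsc to 0.07 for Ctsh. That of Ctsd was 0.01 (95% interval -0.166 to 0.189), that of Ctss -0.02 (-0.245 to 0.206), that of Ctsz 0.04 (-0.149 to 0.233) and that of Ctsb 0.02 (-0.0731 to 0.113). Within a genotype 0 of 10 passed in 5xFAD animals (0% of all genes, 1017 at an unadjusted p under 0.05), 5xFAD-Dp16 animals (0%, 1307), Dp16 animals (0.00571%, 1 gene called and 347 at an unadjusted p under 0.05) and WT animals (0%, 491). Ctsk in WT animals was the only cathepsin at an unadjusted p under 0.05 in these. In 5xFAD animals Ctsd averaged 486 ± 134 CPM under tofacitinib and 554 ± 153 CPM in sham animals (SD, n = 5 and 4). Ctsz averaged 96.9 ± 28.9 CPM under tofacitinib and 109 ± 33.1 CPM in sham animals, and Ctss 206 ± 77.8 CPM under tofacitinib and 233 ± 76.1 CPM in sham animals. These differences were smaller than the SD of either group. In 5xFAD-Dp16 animals Ctsd averaged 453 ± 65.2 CPM under tofacitinib and 393 ± 51.2 CPM in sham animals (n = 4 and 3).

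The interaction of segment and tofacitinib called 0 of 10, with 0% of all genes (1148 at an unadjusted p under 0.05). Its most negative estimate was -0.85 for Ctsk (SE 0.348, adjusted p 0.754). DESeq2 called no cathepsin in it or in any comparison of tofacitinib with sham animals. The sex term called no cathepsin, with female minus male at -0.01 to 0.11 on the log2 scale, and called 11 of all genes.

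**Figure D3:**
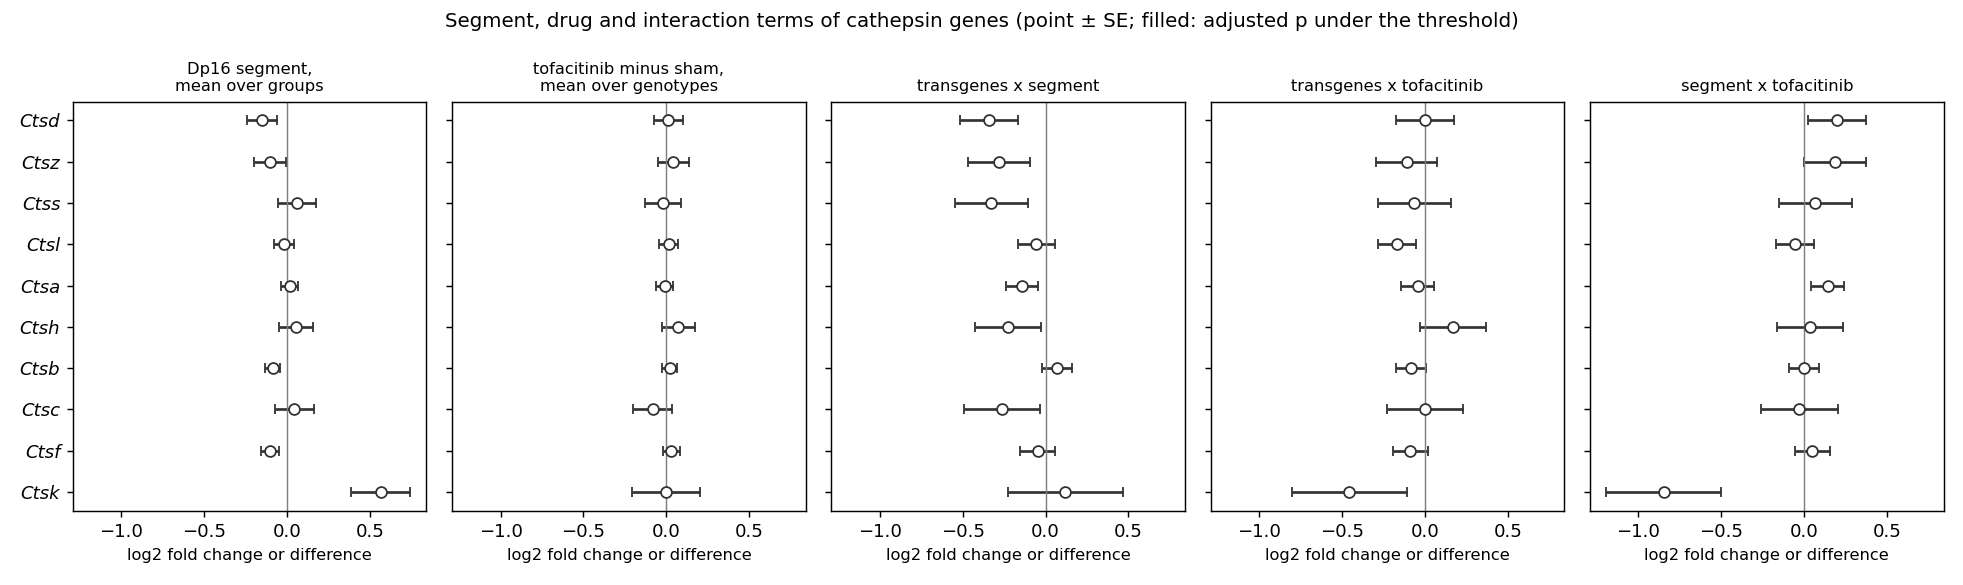
Estimates for the 10 cathepsin genes (x axis, log2 fold change or difference of log2 fold changes) for the Dp16 segment, tofacitinib and the 3 interactions. Points are estimates, bars are 1 SE, and open points did not pass the threshold. No point is filled, the tofacitinib points lie between -0.08 and 0.07, and Ctsk stands at 0.57 for the segment and -0.85 for the interaction of segment and tofacitinib.

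Microglial marker genes rose with the same transgenes. Of 14 microglial markers 11 rose, with a median of 0.50, including Csf1r by 0.56 (adjusted p 0.00119), the receptor that microglia need to survive, and Cx3cr1 by 0.49 (adjusted p 0.000311), the fractalkine receptor. P2ry12, a receptor of resting microglia, was at 0.32 (adjusted p 0.0825). Of 15 tested genes known from plaque-associated microglia 12 rose, with a median of 1.52. They were led by the chemokine gene Ccl6 at 2.48 (adjusted p 1.28e-10), the cystatin gene Cst7 (adjusted p 6.11e-10), the lectin gene Clec7a at 3.86 (adjusted p 9.77e-08) and the lipid receptor gene Trem2 at 1.52 (adjusted p 6.68e-07). Cd68, a lysosomal membrane protein of macrophages, averaged 45.3 ± 18.9 CPM in 5xFAD sham animals and 13.1 ± 1.59 CPM in WT sham animals (SD, n = 4 and 5). The mean log2 CPM of the 14 microglial markers ran from 4.60 to 5.92 in animals with the transgenes and from 4.67 to 4.94 in animals without. It was 4.99 in 5xFAD sham animal 4 and 4.97 in 5xFAD tofacitinib animal 6, the 5xFAD animals with the lowest Ctsd. It was 4.85 in 5xFAD tofacitinib animal 2 and 5.44 to 5.92 in the other 6 5xFAD animals. The microglial marker level was the lowest of all in 5xFAD-Dp16 sham animal 4, at 4.60. That library was low in hippocampal markers and high in thalamus markers (6.88). The mean log2 CPM of the 10 cathepsins there was 6.16, the highest of that group. Ctsd, Ctss and Ctsz were the lowest of that group there, at 341, 156 and 73.7 CPM. Ctsf and Ctsk were the highest, at 56.6 and 4.17 CPM. In 5xFAD-Dp16 tofacitinib animal 1, also high in thalamus markers (5.79), the microglial marker level was 5.14, the lowest of that group. The cathepsin mean there was 6.30, the highest of all 34 libraries. What part tissue content had in these values was not tested.

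Markers of other cell types did not pass for the transgenes, apart from 1 of 8 astrocyte markers, Gfap, which rose by 0.75 (adjusted p 0.0351). For perivascular macrophages and monocytes the count was 0 of 7 with a median of -0.06, and for neutrophils 0 of 2 with a median of -0.14. The neutrophil markers Ly6g, Mpo, Elane and Camp had at most 3, 7, 2 and 7 counts in any library. The count was also 0 for fibroblasts (of 8, median 0.10), oligodendrocytes (of 7, median 0.07), neurons (of 8, median -0.08), endothelial cells (of 6, median 0.09), the choroid plexus (of 7, median -0.11), hippocampal neurons (of 10, median -0.10) and the thalamus (of 7, median 0.55).

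With the level of the microglial markers entered in the fit as a covariate, 6 cathepsins passed for the transgenes, where 12.7% of all genes did. The estimate was 0.48 for Ctsd (SE 0.0921, adjusted p 0.00163), 0.50 for Ctsz (SE 0.0966, adjusted p 0.00177), 0.29 for Ctss (SE 0.0832, adjusted p 0.0204), 0.39 for Ctsl (SE 0.0819, adjusted p 0.00325) and 0.22 for Ctsa (SE 0.0652, adjusted p 0.0272). Ctsf joined them at 0.22 (SE 0.0667, adjusted p 0.0266), and Ctsb and Ctsh no longer passed (adjusted p 0.102 and 0.311). The highest Ctsf values were those of 5xFAD tofacitinib animal 2 and 5xFAD-Dp16 sham animal 4, both low in hippocampal markers. Their microglial marker levels, 4.85 and 4.60, were the lowest among animals with the transgenes. The covariate fit was not run without the 3 libraries low in hippocampal markers. For Ctss the estimate was 0.29 with the covariate and 0.87 without it, and for Ctsl 0.39 with it and 0.41 without it. Between 5xFAD and WT animals no cathepsin passed with the covariate, in sham animals (0.211% of all genes) or under tofacitinib (1.95%). The covariate itself rose with the transgenes, and what part of the cathepsin change it carries was not tested.

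**Figure D4:**
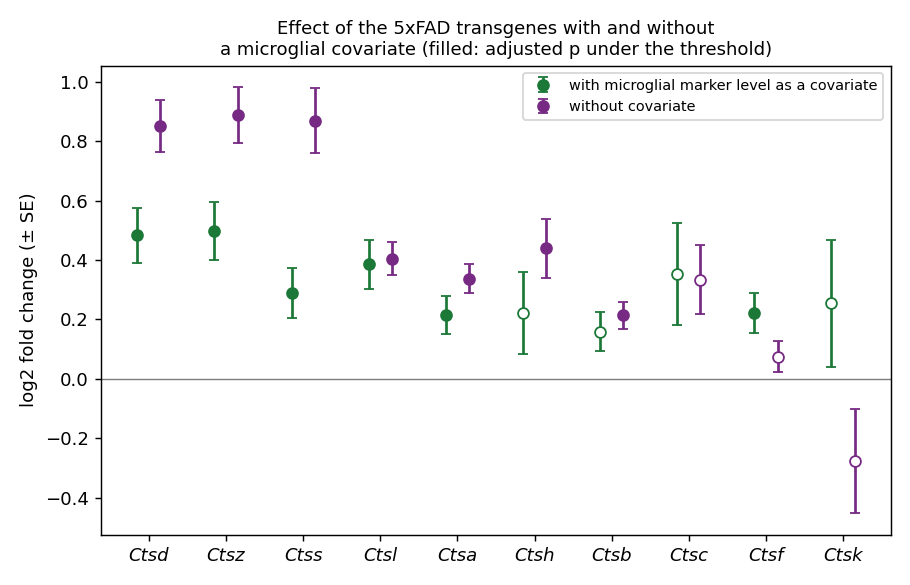
Log2 fold change for the 5xFAD transgenes (y axis, bars are 1 SE) with the mean level of 14 microglial markers as a covariate (green) and without it (purple), for each cathepsin gene. Filled points passed the threshold. The green points of Ctsd, Ctsz and Ctss lie at 0.48, 0.50 and 0.29, under the purple points at 0.85, 0.89 and 0.87, while those of Ctsl lie at 0.39 and 0.41.

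Other genes of the lysosome were read beside the cathepsins in the same comparison. Among the other cathepsin genes, Ctse, an aspartic protease of the endosome, averaged 0.984 ± 0.636 CPM in 5xFAD sham animals and 0.0219 ± 0.049 CPM in WT sham animals (SD, n = 4 and 5) and rose with the transgenes (adjusted p 0.000453). Ctso was at 0.00 on the log2 scale (adjusted p 0.998), and Ctsg and Ctsw, with at most 4 and 12 counts in any library, were not tested. Of 4 cystatins, which inhibit cysteine cathepsins, Cst7 rose, at 29.3 ± 19.3 CPM in 5xFAD sham animals and 0.11 ± 0.155 CPM in WT sham animals. Cst7 is also on the plaque-associated list. Cst3, the abundant cystatin C, was at 0.01 (adjusted p 0.963), Cstb at 0.08 and Cst6 at -0.23. Of 7 other lysosomal proteases 2 rose, with a median of 0.16. They were Lgmn, the asparaginyl endopeptidase that processes cathepsin precursors, by 0.35 (adjusted p 5.13e-05) and the carboxypeptidase gene Scpep1 by 0.32 (adjusted p 0.0153).

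Of 29 glycosidases, lipases and cofactors 7 rose, with a median of 0.11. They included the progranulin gene Grn at 0.69 and the beta-glucuronidase gene Gusb at 0.67 (adjusted p 9.53e-06 and 1.49e-05), and the glycosidase gene Hexa was at 0.47 (adjusted p 2.45e-05). The list shares 1 gene with the microglial markers. Of 15 membrane proteins 3 rose, with a median of 0.12, and these were the macrophage genes Cd68 by 1.35, Slc11a1 by 0.97 and Laptm5 by 0.77. Lamp1, a general lysosomal membrane protein, was at 0.10 (adjusted p 0.437). None of 16 subunits of the proton pump that acidifies the lysosome passed (median -0.05), and none of 10 genes that sort enzymes to it (median 0.03). Of 5 tested transcription factors, the macrophage factors Irf8 and Spi1, which encodes PU.1, rose by 0.99 and 0.53 (adjusted p 6.09e-06 and 0.0173). Tfeb, Tfe3 and Mitf, which bind the CLEAR element, were at 0.08, 0.04 and 0.07 and did not pass.

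**Figure D5:**
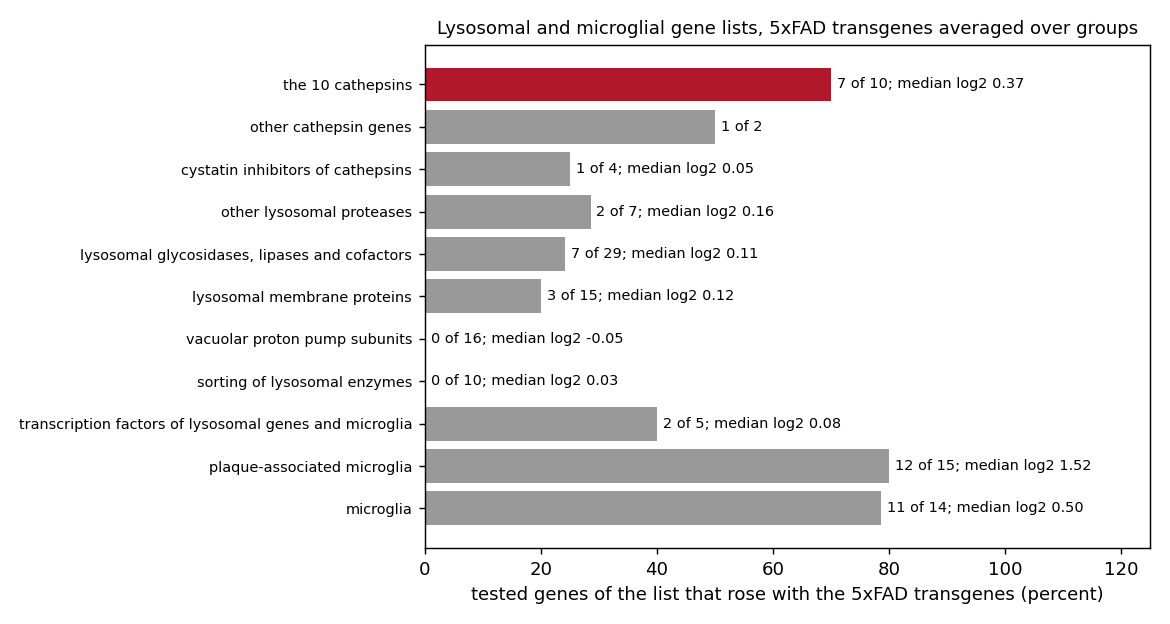
Share of the tested genes of each list that rose with the 5xFAD transgenes, averaged over groups (x axis, percent; 1 bar a list, with the count and, for lists of more than 2 tested genes, the median log2 fold change). The cathepsins (red) stand at 7 of 10, beside 11 of 14 microglial markers and 12 of 15 plaque-associated genes, and the proton pump and sorting lists stand at 0.

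Across the 8 group means of log2 CPM, the genes most like Ctsd among 14445 compared were Cd68 (Pearson r 0.9987) and Laptm5 (0.9918), and those most like Ctsz were Cd68 (0.9927) and Mpeg1 (0.9919). Ctss was most like Fcer1g (0.9909) and Klhl6 (0.9901), Ctsl most like C3ar1 (0.9897) and Pik3cg (0.9826), and Ctsa most like Myo1f (0.9855) and Naip2 (0.985). Ctsh was most like Stk35 (0.9918) and Capg (0.9876), and Ctsb most like Hvcn1 (0.9669) and Scpep1 (0.962). Among the cathepsins themselves Ctsd and Ctsz were the most alike pair (0.994), and Ctsk was at negative r with each of the other 9, from -0.711 with Ctsf to -0.176 with Ctsc. These values describe 8 points that share their libraries, and groups with the transgenes lie apart from groups without them.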

How the data were processed

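Gene expression was measured by poly(A) RNA sequencing of hippocampus from 34 mice, with strand-specific libraries read as pairs of 150 bp, per the labels' protocols. The deposited count table held whole, unnormalised read counts per gene made by the authors. Tools listed, without roles, in the submitters' processing notes were HTSeq 0.6.1, HISAT2 2.1.0, SAMtools 1.5, bcl2fastq and FastQC 0.11.5, with GRCm38 as the build. The strand setting of the counting and the handling of reads with several matches are not given in the sources used here, and values of overlapping genes are uncertain. The deposited RPKM table equalled the counts divided by gene length and library total for 12463 genes with at least 20 counts, to a relative deviation of 6.66e-16. It was used only to compare levels between genes. Of the 6 5xFAD animals on tofacitinib and the 4 5xFAD-Dp16 sham animals that the design text gives, 5 and 3 were analysed here.

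Groups, replicate numbers and sex came from the labels. Counts were scaled with TMM, filtered with filterByExpr by group and tested with edgeR 4.0.16 (R 4.3.3, robust quasi-likelihood F-test, two-sided). A single fit held 8 group means and sex, with 25 residual degrees of freedom, and each adjusted p is from this test over 17518 genes unless another tool is named. CPM values are scaled with TMM, log2 CPM values use a prior count of 2, and the SE of a log2 fold change came from its F statistic, with 95% intervals from the t distribution on the total degrees of freedom of that test. Alternatives were other scaling, no filter, no sex term, a replicate block, DESeq2 1.42.0, a microglial covariate, the compared groups alone, and leaving out libraries. The test was checked on simulated counts over 17285 genes, for the transgene comparison, where 95% of 100 genes changed by 1 on the log2 scale and 73% of 100 changed by 0.5 were recovered, with 9 false calls.

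The 10 cathepsins and the gene lists were chosen with earlier results of these data known. All 10 members are named, and from each list up to 4 genes with the smallest p among those past the threshold for the transgenes. A gene that this rule would name is not reported here. Csf1r, Cx3cr1, P2ry12, Cst7 and Cd68 are named as reference levels, and the 2 most alike genes for each cathepsin that passed. Other named genes (Ctso, the cystatins, Lamp1 and the transcription factors that did not pass) were chosen after their values were seen.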

Additional observations from a re-analysis of the deposited data

Results flagged for a closer look

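In 60 sets of 4 or 5 animals (each cathepsin in each group of at least 4), the highest or lowest animal stood far from the others in 6, and chance gives about 1 in 20. Ctsb was highest in WT tofacitinib animal 3, at 705.9 CPM with the next at 572.6 CPM, and that library was low in hippocampal markers. Ctsf was highest in 5xFAD tofacitinib animal 2, at 62.18 CPM with the next at 48.67 CPM, and that library was also low in hippocampal markers. Ctsl was lowest in 5xFAD sham animal 4, at 105.6 CPM with the next at 139.4 CPM, and that animal also had the lowest Ctsd, Ctsz, Ctss, Ctsa and Ctsb of its group. Ctsd was highest in Dp16 tofacitinib animal 2, at 313.4 CPM with the next at 260.8 CPM, and Ctsz was highest in the same animal, at 56.41 CPM with the next at 53.8 CPM. That library had the highest mean log2 CPM of choroid plexus markers, at 6.68, with 5xFAD tofacitinib animal 2 next at 6.49. What part tissue content had in its values was not tested. Ctsc was highest in 5xFAD tofacitinib animal 5, at 18.26 CPM with the next at 15.5 CPM.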

How the results depend on the processing

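For the 5xFAD transgenes averaged over groups, 7 cathepsins passed with all libraries (1.59% of all genes) and 7 to 8 with 1 library left out (223 to 336 of all genes). No result past the threshold reversed its direction under any alternative run. With no filter on low counts, 3 cathepsins passed for 5xFAD-Dp16 against Dp16 in sham animals (1.63% of all genes) and 3 under tofacitinib (0.374%), against 0 with the filter in both. It was 1 for 5xFAD-Dp16 against 5xFAD in sham animals (3.37% of all genes, 0 cathepsins with the filter) and 4 for 5xFAD-Dp16 against WT in sham animals (4.06%, 2 with it), and the cause was not tested. With the microglial covariate, 0 passed for 5xFAD against WT in sham animals (0.211% of all genes, 5 cathepsins without it), 0 for 5xFAD against WT under tofacitinib (1.95%, 4 without it), 0 for 5xFAD-Dp16 against WT under tofacitinib (0.502%, 4 without it), 4 for 5xFAD-Dp16 against WT in sham animals (6.44%, 2 without it) and 1, Ctss at 0.27, for the segment mean (1.36%, 0 without it). With the compared groups alone, a fit of fewer samples, 0 passed for 5xFAD against WT in sham animals (0.0897% of all genes), 0 for it under tofacitinib (0%), 0 for 5xFAD-Dp16 against WT in sham animals (0%) and 3 for 5xFAD-Dp16 against Dp16 under tofacitinib (0.22%), where DESeq2 called 2 (0.143%). Without the 3 libraries low in hippocampal markers, 0 passed for 5xFAD-Dp16 against WT in sham animals (0.475% of all genes) and 3, without Ctsa, for 5xFAD against WT under tofacitinib (0.459%). With 1 library left out, the count ran from 2 to 5 for 5xFAD against WT in sham animals (12 to 105 of all genes), 1 to 4 for it under tofacitinib (14 to 85), 0 to 1 for 5xFAD-Dp16 against WT in sham animals (65 to 474), 0 to 4 for it under tofacitinib (63 to 94) and 0 to 1 for the segment mean (190 to 390). Ctsc passed for the transgenes without the filter (adjusted p 0.00836), where 2.83% of all genes passed.

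With replicate number as a block, 3 cathepsins passed for 5xFAD against WT in sham animals, where 5 passed without it (0.126% of all genes with the block and 0.445% without). For 5xFAD-Dp16 against WT the count was 3 with the block and 2 without in sham animals, where Ctsz joined, and 3 with it and 4 without under tofacitinib, where Ctsa was lost. Of all genes, 0.622% passed with the block and 0.959% without it in sham animals, and 0.468% with it and 0.537% without it under tofacitinib. Same-numbered animals of different groups deviated together little, with a median correlation of 0.034 over 98 pairs (-0.58 to 0.419) beside -0.017 over 405 pairs of other numbers, so the numbers were not taken as pairs. Groups of 3 to 5 animals limit the within-background comparisons, and Ctsk, near 2 CPM, is the least precise of the 10 genes.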
